A study of Mus musculus with 6 samples.

Results

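The transcription factors that drive red cell formation, Gata1, Klf1, Tal1, Gfi1b, Zfpm1, Lmo2, Nfe2, Bcl11a and Ldb1, were examined in mouse bone marrow together with Epor, the receptor gene of erythropoietin. The 10 genes were chosen by symbol among the 54532 genes of the count table, and all 10 passed the low-count filter that left 15015 genes for testing. The libraries came from wild-type mice, whose femoral marrow cells were profiled fresh by bulk RNA-seq. In 3 of them, unloaded 1 to 3, the mice had been kept under hindlimb unloading for 4 weeks, which lifts the hind limbs off the floor and serves as a model of disuse osteoporosis. In the other 3, control 1 to 3, the mice had received no treatment. The sources used here give no strain, sex or age. Nothing in the labels says whether the replicates came from separate animals, so p-values measure only the spread between these samples, which may be technical.

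Erythropoietin binds its receptor on erythroid progenitors and signals through the kinase JAK2 and the factor STAT5, which keeps these cells alive while they mature. Inside the cell, GATA1 binds GATA motifs with its cofactor ZFPM1 (FOG1), and TAL1 binds E-box motifs as part of a complex in which LMO2 and LDB1 act as bridges. KLF1 binds CACCC boxes of globin and red cell membrane genes. GFI1B is a repressor, NFE2 activates globin genes with a small MAF partner, and BCL11A silences embryonic globin genes. Several of these genes also work in other marrow cells, GATA1, GFI1B and NFE2 in megakaryocytes and BCL11A in B cells and plasmacytoid dendritic cells. In bulk marrow, fewer cells of a type and less RNA per cell cannot be told apart.

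RefSeq promoter sequences of 4 of the genes are shown because these genes, with Lmo2, lay furthest below the other libraries in the library unloaded 1, as described further on. They are from RefSeq (GRCm38.p6, the same assembly as the mm10 coordinates of the count table), 5′ to 3′ on the strand of the gene. Those of Gata1, Tal1 and Epor end at the base before the start that RefSeq lists, from which distances are counted. Capitals mark motif matches on either strand. A GATA motif was searched as AGATAA and, in the same way, as TGATAA. The CACCC box was searched as CCNCNCCC, a loose spelling that also takes in GC-rich stretches without CACCC, such as CCCCGCCC. The E-box was searched as CAGNTG, and the core of the NF-E2 motif was searched as TGANTCA. Neighbouring CACCC box matches can overlap one another. The Gata1 stretch is chrX:7967911-7968160 on the minus strand, and lies inside the longer interval that the count table gives for Gata1. The Tal1 stretch is chr4:115056176-115056425 on the plus strand and the Epor stretch chr9:21963577-21963826 on the minus strand. The Klf1 stretch, chr8:84901732-84901927 on the plus strand, is 196 bases long because 54 bases that GENCODE M21 counts as exon were left out, so it ends that far before the RefSeq start.
Gata1: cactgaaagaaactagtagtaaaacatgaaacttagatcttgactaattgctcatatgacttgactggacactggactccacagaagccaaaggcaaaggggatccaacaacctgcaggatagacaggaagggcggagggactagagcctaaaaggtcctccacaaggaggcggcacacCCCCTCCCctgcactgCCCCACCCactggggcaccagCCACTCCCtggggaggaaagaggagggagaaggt
Klf1: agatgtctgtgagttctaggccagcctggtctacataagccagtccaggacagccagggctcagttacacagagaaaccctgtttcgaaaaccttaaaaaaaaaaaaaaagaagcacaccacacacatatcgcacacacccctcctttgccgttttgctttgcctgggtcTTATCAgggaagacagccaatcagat
Tal1: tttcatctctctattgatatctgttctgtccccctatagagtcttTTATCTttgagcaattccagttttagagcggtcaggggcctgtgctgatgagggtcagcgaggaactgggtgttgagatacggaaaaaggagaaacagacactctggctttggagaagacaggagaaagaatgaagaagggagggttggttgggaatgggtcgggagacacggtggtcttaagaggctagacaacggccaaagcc
Epor: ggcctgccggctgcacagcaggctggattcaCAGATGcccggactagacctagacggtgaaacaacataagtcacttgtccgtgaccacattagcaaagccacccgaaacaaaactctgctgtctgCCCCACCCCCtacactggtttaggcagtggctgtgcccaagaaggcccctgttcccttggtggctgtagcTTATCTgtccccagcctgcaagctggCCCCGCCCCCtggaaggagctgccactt

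Epor carried a reversed AGATAA whose first base lay 54 bases upstream of the start. Matches to the CACCC box letters lay from 28 and 124 bases upstream, and the nearer stretch, CCCCGCCCCC, holds no CACCC. Klf1 carried a reversed TGATAA at 80 bases upstream, and this entry of Tal1 a reversed AGATAA at 205 bases. The Gata1 stretch held 3 matches to the CACCC box letters and no GATA motif of the letters searched. RefSeq listed 11 promoters for 8 of the 10 genes, with none for Lmo2 and Nfe2, and the 250 upstream bases of 5 of the 11 (45.5%) held a GATA motif of either spelling. Of all 32851 listed promoters, 16.6% did. The CACCC box letters, in this loose spelling, stood in 9 of the 11 (81.8%) and in 45.9% of all promoters. The E-box letters stood in 3 of the 11 (27.3%), against 44.8% of all, and the NF-E2 core in 0 of the 11, against 6.75%. These shares describe letters in a window and were not tested.

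All libraries were of similar depth, from 15850986 to 17775506 counts, and between 477 and 5165 counts lay behind each value of the 10 genes. The library unloaded 1 stood apart. Its first principal component score was -51.3, against 7.37 to 13.7 in the others, on an axis with 34.8% of the variance. The mitochondrial share of counts was 0.439% in it and 1.05% to 1.27% elsewhere. Several results that rest on this library are given with and without it. Of the gene lists examined, the 14 neutrophil markers had the highest summed level. It was 54928 to 66864 CPM in unloaded and 58885 to 67040 CPM in control libraries. Erythroid cells were represented by 44 testable target and marker genes.

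None of the 10 genes passed the test between unloaded and control marrow. By edgeR's quasi-likelihood test with Benjamini-Hochberg adjustment over 15015 genes, 0 of the 10 were called, with a smallest adjusted p of 0.919. The background was 0% of all tested genes. At an unadjusted p under 0.05 there were 0 of the 10 genes against 5.85% of all tested genes. DESeq2 called 0 of the 10 and 0.266% of all genes, and limma-voom called 0 of either. Log2 fold changes of unloaded over control ran from -0.19 for Lmo2 to 0.10 for Bcl11a. Their median was 0.0014, against 0.0054 over all tested genes, and 5 were positive and 5 negative. Among all tested genes 51.2% were positive. The number positive was 8 without unloaded 1, where 50.5% of all genes were positive, 2 without unloaded 2 and 3 without control 3. Without unloaded 1, 0 of the 10 were called by edgeR, against 0.0324% of all genes, and 0 by DESeq2, against 0.473%. The 95% interval of the fold ran from 0.677 at its lowest, for Lmo2, to 1.36 at its highest, for Tal1, so for each of the 10 a change of 1.5-fold in either direction lay outside the interval. That was also so for each of the 10 without unloaded 1. It was not examined with any other library left out, and without unloaded 2 the log2 fold change of Lmo2 was -0.34.

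**Figure D1:**
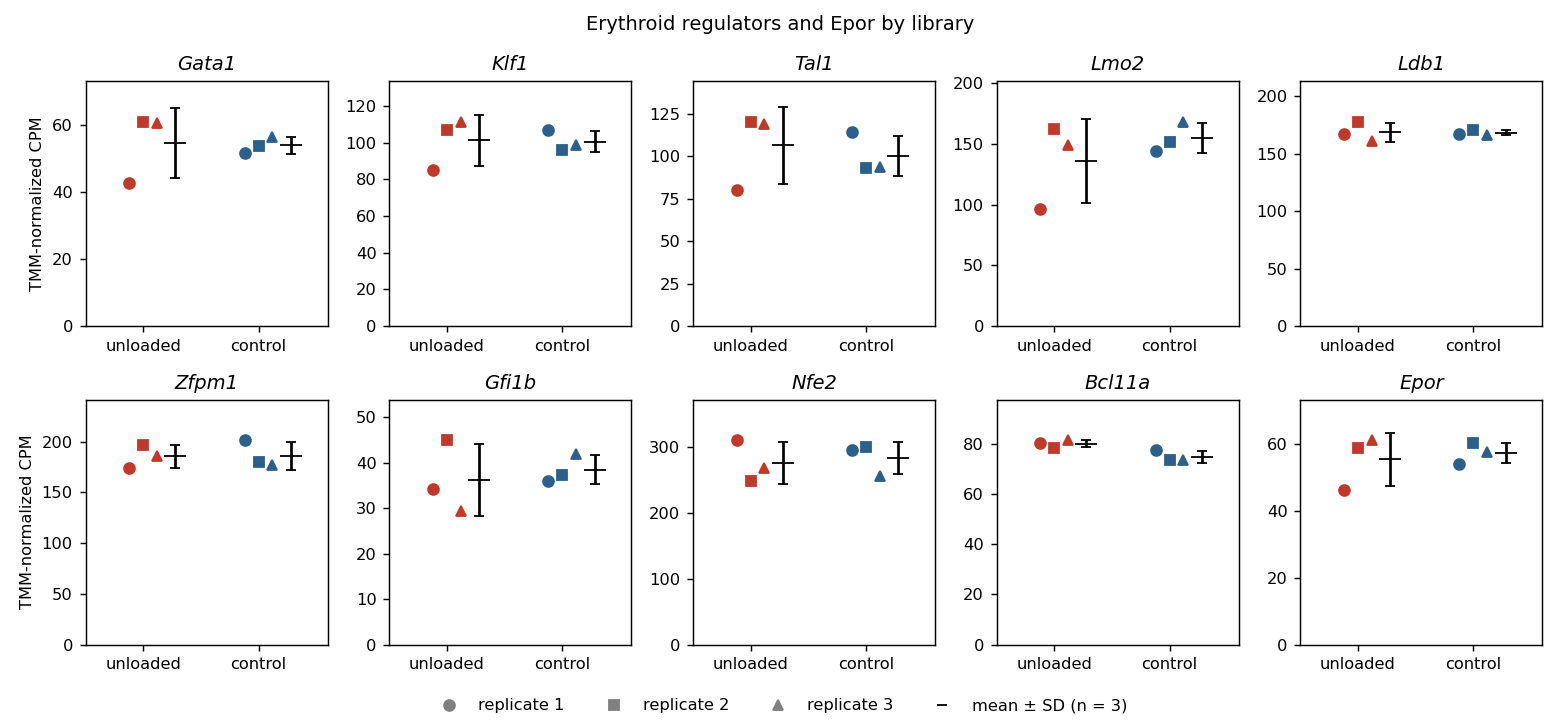
TMM-normalized CPM of each gene in every library, with the scale of each panel starting at 0 and bars for mean ± SD of 3 libraries. Unloaded 1, the circle on the left, is the lowest of the 6 libraries for Gata1, Klf1, Tal1, Lmo2, Zfpm1 and Epor, and the highest for Nfe2.

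The receptor gene Epor (ENSMUSG00000006235, mm10 chromosome 9, 21958897 to 21963506, minus strand) had 46.4, 58.9 and 61.2 CPM in unloaded 1 to 3, against 54.2, 60.3 and 57.8 CPM in control 1 to 3. CPM here are counts scaled to library size with TMM factors. The groups overlapped, with the lowest and the highest value both in unloaded libraries. Means were 55.5 ± 7.96 CPM in unloaded and 57.4 ± 3.05 CPM in control marrow (SD, n = 3). Unloaded over control came to -0.05 ± 0.12 (SE) on the log2 scale, with a 95% interval from 0.799-fold to 1.17-fold. Without unloaded 1 it was 0.06 ± 0.09. Transcripts of Epo, the hormone gene, which is made mainly in the kidney, had 0 counts in every library, which allows up to 0.172 to 0.191 CPM (3 counts per library, counting error only).

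None of the signalling genes directly behind the receptor passed the test. Jak2, the kinase bound to the receptor, averaged 116 ± 6.66 CPM in unloaded and 123 ± 4.17 CPM in control marrow (log2 fold change -0.09 ± 0.10). Stat5a averaged 72.4 ± 5.97 and Stat5b 175 ± 22.1 CPM in unloaded libraries, against 77.7 ± 3.52 and 197 ± 2.83 CPM in control libraries. Stat5b was lower in all 3 unloaded libraries than in any control, as 6.40% of all tested genes were, and its edgeR adjusted p was 0.896. Its log2 fold change was -0.17, or -0.08 without unloaded 1. Of 30 tested genes of Epor signalling, 0 were called in either direction by edgeR, and 14 had positive and 16 negative fold changes (median -0.04). Those with the smallest p were Pim1, a survival kinase gene and STAT5 target (0.37 ± 0.13), Sh2b3, which encodes the inhibitor LNK (-0.25 ± 0.09), and Bcl2l1, the gene of the survival protein BCL-XL (0.23 ± 0.11). Their edgeR adjusted p-values were 0.801, 0.802 and 0.847. In each of these 3 genes the unloaded values lay wholly on one side of the control values, as in 11.9% of all tested genes. Since the 3 were named for their small p, this separation adds nothing to it.

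Gata1 (ENSMUSG00000031162, chromosome X, 7959260 to 7978071, minus strand), the master regulator of erythroid maturation, had 42.5, 60.8 and 60.5 CPM in unloaded 1 to 3, against 51.4, 53.7 and 56.4 CPM in control 1 to 3. Unloaded 1 lay below every control and unloaded 2 and 3 above every control, so the groups overlapped although no single unloaded value fell within the control range. Means were 54.6 ± 10.5 CPM in unloaded and 53.8 ± 2.48 CPM in control marrow (SD, n = 3). The log2 fold change was 0.02 ± 0.14 (SE; edgeR adjusted p = 0.989), or 0.17 ± 0.09 without unloaded 1 (edgeR adjusted p = 0.597).

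Zfpm1 (ENSMUSG00000049577, chromosome 8, 122282141 to 122337251, plus strand), which encodes the GATA1 cofactor FOG1, had 174, 197 and 186 CPM in unloaded libraries, against 201, 179.9 and 177 CPM in control libraries. The groups overlapped, and the log2 fold change was -0.0018 ± 0.10. Another annotated gene, Gm20388, covers Zfpm1 on the same strand and had 0 counts in all libraries. Gata2, which precedes Gata1 in progenitors, averaged 47.7 ± 10.5 CPM in unloaded and 55.4 ± 5.57 CPM in control marrow (log2 fold change -0.21 ± 0.16; edgeR adjusted p = 0.896). Without unloaded 1 the log2 fold change of Gata2 was -0.08. Spi1, which encodes the myeloid factor PU.1 that opposes GATA1, averaged 477 ± 40.9 CPM in unloaded and 476 ± 60.0 CPM in control marrow.

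Tal1 (ENSMUSG00000028717, chromosome 4, 115056426 to 115071755, plus strand), the E-box binding factor of the complex, had 80.4, 120.3 and 119 CPM in unloaded 1 to 3, against 114, 93.1 and 93.4 CPM in control 1 to 3. Unloaded 1 was the lowest of the 6 libraries and unloaded 2 and 3 were the highest. Its log2 fold change was 0.09 ± 0.16 (edgeR adjusted p = 0.957), or 0.26 ± 0.10 without unloaded 1 (edgeR adjusted p = 0.480). In that fit Tal1 was the 1 gene of the 10 under 0.05 before adjustment, where 8.98% of all tested genes were.

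Lmo2 (ENSMUSG00000032698, chromosome 2, 103957986 to 103981878, plus strand), the LIM-only bridge protein gene, had 96.7, 162 and 149 CPM in unloaded libraries, against 145, 152 and 168 CPM in control libraries. It had the widest spread of the 10 genes, and unloaded 1 alone lay far below the rest. Means were 136 ± 34.7 CPM in unloaded and 155 ± 12.1 CPM in control marrow (SD, n = 3). The log2 fold change of -0.19 ± 0.17 (edgeR adjusted p = 0.919) was 0.0075 ± 0.09 without unloaded 1. Ldb1 (ENSMUSG00000025223, chromosome 19, 46032593 to 46045214, minus strand), the partner through which the complex dimerizes, had 167, 178 and 161 CPM in unloaded libraries, against 167, 171 and 166 CPM in control libraries. It had the narrowest range of the 10 genes over the 6 libraries, and its log2 fold change was 0.0045 ± 0.10.

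Klf1 (ENSMUSG00000054191, chromosome 8, 84901928 to 84905291, plus strand), the CACCC box factor of late erythroid cells, had 85.4, 107 and 111 CPM in unloaded libraries, against 107, 95.8 and 98.9 CPM in control libraries. As with Gata1 and Tal1, unloaded 1 was the lowest library. For Klf1 the log2 fold change was 0.01 ± 0.12 (edgeR adjusted p = 0.997), or 0.12 ± 0.08 without unloaded 1.

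Gfi1b (ENSMUSG00000026815, chromosome 2, 28609450 to 28621982, minus strand), the repressor gene, had 34.3, 45.0 and 29.4 CPM in unloaded 1 to 3, against 36.1, 37.4 and 42.0 CPM in control 1 to 3. The unloaded group held both the highest value, in unloaded 2, and the lowest, in unloaded 3. This differed from Gata1, Klf1, Tal1 and Epor, for which unloaded 3 was among the 2 highest libraries. Its estimate in log2 units was -0.09 ± 0.16, or -0.28 without unloaded 2 and 0.041 without unloaded 3.

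Nfe2 (ENSMUSG00000058794, chromosome 15, 103248212 to 103258403, minus strand), the large subunit gene of NF-E2, had 310.2, 249 and 269 CPM in unloaded libraries, against 295, 300.4 and 256 CPM in control libraries. Here unloaded 1 was the highest library, opposite to Gata1, and the groups overlapped (log2 fold change -0.04 ± 0.12, or -0.13 ± 0.10 without unloaded 1). Among 9 tested partners and relatives of NF-E2, 7 were negative (median -0.14), and 0 were called by edgeR. Bach2, a repressor gene of B cells that also pairs with small MAF proteins, averaged 52.1 ± 5.31 CPM in unloaded and 83.9 ± 13.1 CPM in control marrow (log2 fold change -0.69 ± 0.13). This gene was called by DESeq2 (adjusted p = 0.00469) and not by edgeR (adjusted p = 0.313). The small MAF gene Mafg had -0.14 ± 0.10 and Nfe2l2, the gene of the stress factor NRF2, -0.15 ± 0.11.

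Bcl11a (ENSMUSG00000000861, chromosome 11, 24078056 to 24174123, plus strand), the globin-switching repressor gene, had 80.3, 78.5 and 81.4 CPM in unloaded libraries, against 77.4, 73.4 and 73.5 CPM in control libraries. It was the 1 gene of the 10 whose groups did not overlap, against 11.9% of all tested genes in either direction. Unloaded lay above control, as in 5.46% of all tested genes. The difference was small, with means of 80.1 ± 1.49 CPM in unloaded and 74.8 ± 2.29 CPM in control marrow (SD, n = 3). In log2 terms it was 0.10 ± 0.09 (edgeR adjusted p = 0.924), with a 95% interval from 0.926-fold to 1.24-fold. Markers of other cells that express Bcl11a mostly had fold changes of the opposite sign. All 12 tested plasmacytoid dendritic cell markers were negative (median -0.22), summing to 619 to 694 CPM in unloaded and 769 to 819 CPM in control libraries. Without unloaded 1, 2 of these 12 were positive (median -0.26). Of 15 B lineage markers 12 were negative (median -0.21, or -0.29 without unloaded 1). Their sums were 718 to 1010 CPM in unloaded and 948 to 1078 CPM in control libraries. The part of these cells in the Bcl11a value was not tested.

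**Figure D2:**
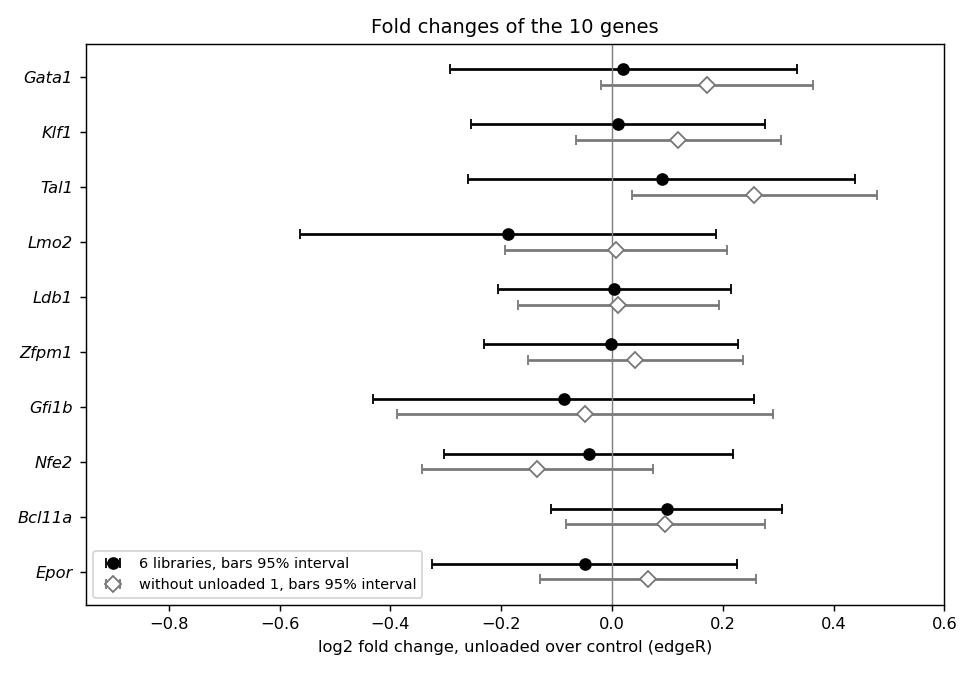
Log2 fold changes of unloaded over control for the 10 genes from edgeR, with 95% intervals, for all 6 libraries (filled circles) and without unloaded 1 (open diamonds). With 6 libraries every interval includes 0, and without unloaded 1 Tal1 has the highest value, at 0.26.

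The library unloaded 1 was the lowest of the 6 libraries for 6 of the 10 genes, against 29.5% of all tested genes, and the highest for 1, against 28.2%. In 5 genes, Gata1, Klf1, Tal1, Lmo2 and Epor, it lay more than 0.25 on the log2 scale below the mean of the other 5 libraries, from -0.68 for Lmo2 to -0.29 for Klf1. The share of all tested genes past this cut was not computed, so this count has no background. Nfe2 lay 0.18 above that mean, and Bcl11a, Ldb1, Zfpm1 and Gfi1b lay between -0.15 and 0.06. The 10 genes thus differed among themselves in this library. Unloaded 2 and 3 both lay above all controls for 4 of the 10 genes, against 12.9% of all tested genes. The 4 were Gata1, Klf1, Tal1 and Bcl11a.

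**Figure D3:**
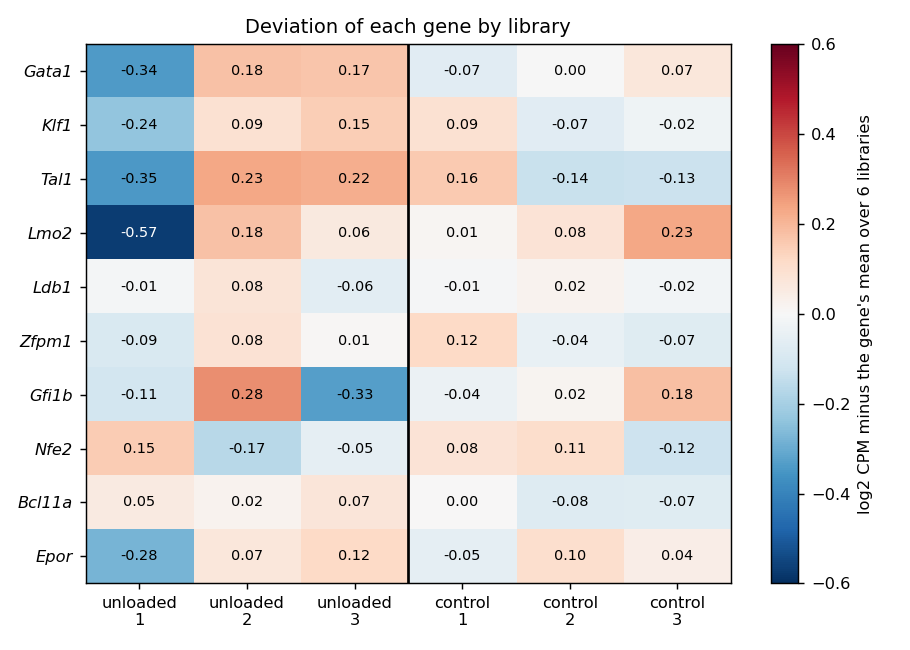
Log2 CPM of each gene in each library after subtraction of the gene's mean over the 6 libraries, with unloaded libraries left of the line. The dark cells of unloaded 1 run from -0.24 for Klf1 to -0.57 for Lmo2, while Bcl11a, Ldb1 and Zfpm1 stay within 0.12 of their means in every library.

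The profiles of Gata1 and Epor were the closest pair among the 10 genes, with a root mean square difference of 0.070 in centred log2 CPM over the 6 libraries. The farthest pair was Lmo2 and Nfe2, at 0.36. Neighbours were then sought among 10043 protein-coding genes with a mean of at least 5 CPM, a number that includes the 10, which were set aside. Those nearest to Gata1 were Ipp, Wdr36, Rnf138, Hnrnpa1 and Utp20, at 0.026 to 0.036, where Gata1 itself varied by 0.17. The nearest to Klf1 was the cyclin gene Ccna2 at 0.011, followed by Arfgef2, Ascc3, Nup160 and Rab5a at 0.024 to 0.031. Bcl11a, which varied by 0.058, was nearest to Ube2l3, Eif3a, Arhgef39, Cdk5 and Cdca8, at 0.020 to 0.028. With 6 libraries and so many genes, these distances are a description only.

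Levels per length, as TPM (counts per base of gene length, scaled to the same total in each library) from the deposited gene lengths, placed the genes in 4 tiers. Nfe2 was the highest, at 256 ± 25.4 TPM in unloaded and 262 ± 16.3 TPM in control marrow (SD, n = 3). Lmo2, Klf1, Zfpm1 and Ldb1 followed. Lmo2 averaged 175 ± 47.3 TPM in unloaded and 198 ± 20.4 TPM in control libraries, and its range over the 6 libraries overlapped that of Klf1, at 184 ± 26.7 and 182 ± 14.7 TPM. Zfpm1 averaged 147 ± 12.5 TPM in unloaded and 147 ± 12.3 TPM in control libraries, and Ldb1 131 ± 10.2 and 129.8 ± 3.06 TPM. Neighbours within this tier overlapped in range, although Klf1 was above Zfpm1 and Zfpm1 above Ldb1 in 6 of 6 libraries. The third tier held Epor, at 77.6 ± 11.7 TPM in unloaded and 79.8 ± 3.43 TPM in control libraries, then Tal1, Gata1 and Gfi1b, at means of 55.3 to 67.8 TPM in unloaded and 58.3 to 63.3 TPM in control libraries, each overlapping its neighbour. Bcl11a was the lowest, at 16.9 ± 0.177 TPM in unloaded and 15.7 ± 0.827 TPM in control libraries. Its deposited length, 13175 bases, is the longest of the 10, and transcripts shorter than this would place its level higher.

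**Figure D4:**
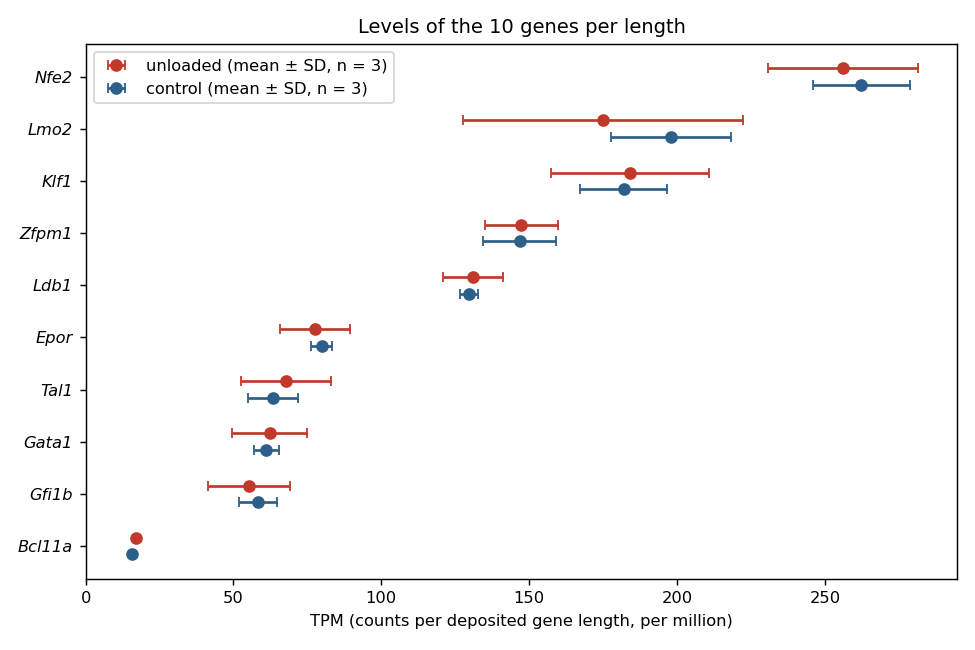
Mean level of each gene in TPM with SD bars over 3 libraries, unloaded above control in each row. Nfe2 lies near 260 TPM and Bcl11a near 16 TPM, and the bars of the 2 groups overlap for 9 of the 10 genes.

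Erythroid target and marker genes had mostly positive fold changes, although edgeR called none of them. Of 44 tested erythroid target and marker genes, 37 were positive and 7 negative by edgeR, with a median of 0.11, where 51.2% of all tested genes were positive. This count was 43 of 44 without unloaded 1 and 21 of 44 without unloaded 2. Hbb-bs, an adult beta globin gene, had 2028, 2161 and 1647 CPM in unloaded 1 to 3, against 1216, 1274 and 1506 CPM in control 1 to 3 (log2 fold change 0.55 ± 0.13). It was the 1 gene of this list called by DESeq2 (adjusted p = 0.0358; edgeR adjusted p = 0.598). Hba-a1, an adult alpha globin gene, had 0.47 ± 0.14 and Alas2, the first enzyme gene of erythroid heme synthesis, 0.42 ± 0.14. How reads were divided among the near-identical globin copies is uncertain. Of the membrane genes targeted by GATA1 and KLF1, Slc4a1 had 0.22 and Epb42 0.06, and the transferrin receptor gene Tfrc had -0.02. Without unloaded 1 the values of these 3 were 0.25, 0.32 and 0.16. Slc4a1, Epb42 and Tfrc were picked as textbook targets after their values were seen. With all 6 libraries, other red cell membrane and skeleton genes of the list ran from -0.05 for Aqp1 to 0.34 for Sptb.

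In unloaded 1, Hbb-bs and Hba-a1 had 2028 and 2657 CPM, above every control, while Gata1, Klf1, Tal1 and Epor were below every control. This did not extend to all of these genes, since Nfe2 and Bcl11a also lay above every control there, and Hbb-bt, at 226 CPM, lay within the control range of 131 to 233 CPM. The summed level of the target and marker list was 11752 CPM in unloaded 1, 15050 in unloaded 2 and 12006 in unloaded 3, against 10652, 10224 and 12000 CPM in control 1 to 3. Hemoglobin transcripts made up 0.510%, 0.584% and 0.399% of counts in unloaded libraries, against 0.316%, 0.322% and 0.411% in control libraries. Both sums overlapped between the groups.

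Partners and cofactors of the GATA1 and TAL1 complexes were called in 0 of 25 tested cases, with 8 positive and 17 negative fold changes (median -0.08). Tcf3, the E protein gene that pairs with TAL1, had 258, 292 and 243 CPM in unloaded 1 to 3, against 319, 312 and 295 CPM in control 1 to 3. All unloaded values lay below the controls, with a log2 fold change of -0.22 ± 0.11 and an edgeR adjusted p of 0.864. Tcf3 also drives B cell development. The corepressor gene Cbfa2t2 had -0.24 ± 0.12 and the acetyltransferase gene Ep300 -0.24 ± 0.13. Cbfa2t3, the corepressor gene ETO2 bound to this complex in erythroid cells, averaged 86.0 ± 15.4 CPM in unloaded and 90.7 ± 8.90 CPM in control marrow. Among 16 other factors of globin switching and erythroid maturation, 8 were positive and 8 negative (median 0.0064), and 0 were called. Ikzf1 had -0.16 ± 0.11, Foxo3 -0.13 ± 0.11 and Myb, which holds progenitors in the immature state, -0.18 ± 0.15 (-0.0087 without unloaded 1).

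**Figure D5:**
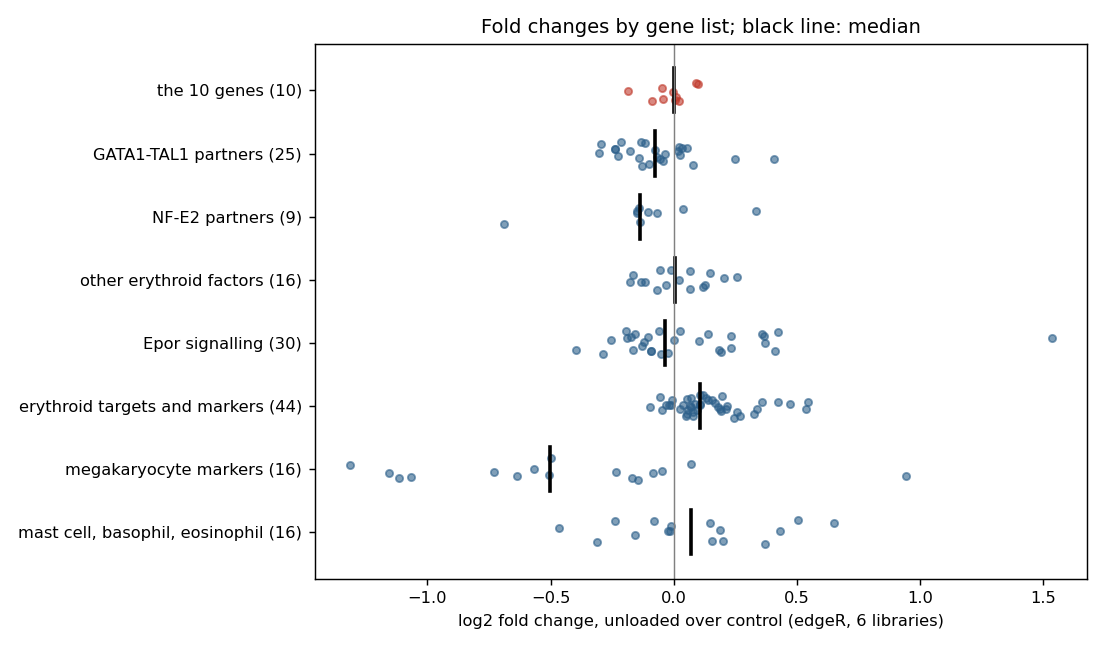
Log2 fold changes of unloaded over control for the tested genes of 8 lists, with the number of genes in brackets and the median as a black line. The 10 erythroid regulators lie within 0.19 of 0, erythroid targets and markers have a median of 0.11, and megakaryocyte markers one of -0.50.

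Markers of other marrow cells had fold changes of both signs. Megakaryocyte and platelet markers were negative in 14 of 16 tested genes, with a median of -0.50, or -0.38 without unloaded 1. Among those with the smallest p were the platelet chemokine gene Ppbp (-1.32 ± 0.30; DESeq2 adjusted p = 0.00543) and Treml1 (-1.07 ± 0.27). Their summed CPM, 499 to 912 in unloaded and 472 to 597 in control libraries, had overlapping ranges. In that sum Thbs1, named after its values were seen, had 637 CPM in unloaded 1 and 143 to 267 CPM in control libraries. Gp1bb, a defining platelet gene, had 6 counts in all libraries together. Mast cell, basophil and eosinophil markers were positive in 8 of 16 (median 0.07, or -0.01 without unloaded 1), with the basophil protease gene Prss34 at -0.31 ± 0.09. Stem and progenitor markers were negative in 9 of 12 (median -0.18, or -0.05 without unloaded 1), with Meis1 at -0.54 ± 0.22. Their summed level was 218 CPM in unloaded 1, 294 in unloaded 2 and 266 in unloaded 3, against 281 to 290.2 CPM in control libraries. Myeloid factors that oppose erythroid ones were negative in 6 of 7 (median -0.15), led by Cebpa (-0.28 ± 0.10; edgeR adjusted p = 0.802). Neutrophil markers were negative in 11 of 14 (median -0.07) and endothelial markers in 7 of 8 (median -0.39, or -0.55 without unloaded 1). By edgeR 0 genes of these lists were called, and the part of these cells in the values of the 10 genes was not tested.

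Some reads could not be assigned with certainty, since the strand setting of the counting is not given. Ldb1 shares 329 bases with Pprc1 on the opposite strand, a gene with 1010 to 1310 counts per library. Lmo2 overlaps 4931422A03Rik on the opposite strand, which had 67 to 98 counts per library. Bcl11a overlaps 2 antisense genes with at most 16 counts per library.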

How the data were processed

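Counts were deposited by the authors as raw read counts per gene, with no normalization, in 6 libraries of bone marrow cells (3 unloaded, 3 control, grouped by title). Per the submitters' processing notes, HISAT2 2.0.5, featureCounts 1.5.0-p3 and the build mm10 were used. For the annotation release, the strand setting and multi-mapped reads the sources used here give nothing. Gene lengths were used as deposited; per the file headers they are the lengths of the genes.

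Genes were filtered with edgeR 4.0.16 (filterByExpr), scaled with TMM and compared with glmQLFit and glmQLFTest in R 4.3.3. Benjamini-Hochberg adjustment ran over 15015 genes, with calls under 0.05. Standard errors are the log2 fold change over the root of its F statistic, and 95% intervals use the t distribution with the fit's degrees of freedom. Log2 CPM used a prior count of 2. Alternatives used DESeq2 1.42.0 and limma 3.58.1. The fits were tested on simulated counts.

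The 10 genes and the 13 gene lists were chosen with earlier results of these data known. Named list genes were the 3 with the smallest p per list, plus Jak2, Stat5a, Stat5b, Gata2, Spi1 and Cbfa2t3. Some are given only as counts, and some are not reported here. The symbols Ahsp, Fam132b and Fam46c were not analysed here, the last 2 being older names of Erfe and Tent5c. Library pairs differed beyond sampling noise (chi-square per degree of freedom 7.20 to 38.3). No pairing was assumed, since the labels do not say that replicate numbers pair samples. Deviations from group means had correlations of 0.031, -0.063 and 0.019 for same-numbered libraries, and -0.088 to 0.094 for the others. These cannot exclude a pairing, because deviations from a mean of 3 libraries are tied to one another.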

Additional observations from a re-analysis of the deposited data

How the results depend on the processing

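No member was called under any alternative tried, which were other scaling, filters, gene sets, thresholds, tools, each library left out and the replicate block. The median log2 fold change of the 10 genes ran from -0.043 to 0.053 with single libraries left out. Over all genes, edgeR called 0, against 40 by DESeq2, 8 by limma-voom with library weights, 183 without a low-count filter, 1 with the replicate block, and 0 to 5 with single libraries left out. Of the list genes outside the 10, DESeq2 called 5, limma-voom with library weights 1 and edgeR without a low-count filter 12, against 0. The replicate block changed no other call. The number of the 10 with a positive fold change ran from 2 to 8, and that of the erythroid targets and markers from 21 to 43, with single libraries left out. Alternatives for these counts and for the list genes were added after seeing the data.

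Signs of values near 0 turned. With library weights Epor was at 0.027 and Zfpm1 at 0.045. Zfpm1 was at 0.017 with upper-quartile scaling, 0.00047 with at least 1 CPM in 3 libraries and 0.0054 with protein-coding genes alone. Ldb1 was at -0.0050 without a low-count filter. With single libraries left out, Gata1 ran from -0.066 to 0.17, Klf1 from -0.064 to 0.12, Tal1 from -0.0086 to 0.26, Epor from -0.13 to 0.064 and Gfi1b from -0.28 to 0.041. Zfpm1 ran from -0.049 to 0.059, Lmo2 from -0.34 to 0.0075, Nfe2 from -0.13 to 0.024 and Ldb1 from -0.038 to 0.034. The cause was not tested. With 3 libraries a group, the 95% intervals leave room for true folds from 0.677 (Lmo2) to 1.36 (Tal1).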

Other observations

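Erfe, the gene of erythroferrone, which erythroblasts secrete in response to erythropoietin and which lowers hepcidin, had 0.446, 2.36 and 10.6 CPM in unloaded 1 to 3, against 1.09, 1.63 and 1.88 CPM in control 1 to 3. It was chosen after its values were seen. The groups overlapped, and the adjusted p was 0.881 by edgeR and 0.999 by DESeq2 (log2 fold change 1.54 ± 0.78). Without unloaded 1 the log2 fold change was 2.07, which DESeq2 called (adjusted p = 0.0104) and edgeR did not (adjusted p = 0.279). Cish, a STAT5 target gene and feedback inhibitor also chosen after its values were seen, had a log2 fold change of 0.42, with overlapping groups.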
